A study of Mus musculus with 14 samples.

Results

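Imprinted genes are genes whose 2 parental copies are marked differently in the germ line, so that most of the transcript comes from the copy inherited from 1 parent. The marks are methylated CpG-rich stretches that stay methylated on a single parental copy through early development, and zinc-finger proteins, DNA methyltransferases and chromatin regulators keep them in place. Many imprinted genes act on growth of the embryo and placenta, and several are active in the developing brain. The data described here cover 37 such genes, a list of well-known imprinted genes and a few host or neighbouring genes, out of 35449 genes in the files. They were read in 14 libraries of mouse cells with or without the targeted H3f3a gene. H3f3a is 1 of 2 genes, with H3f3b, for the histone variant H3.3.

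The lines were primary cultures from E13.5 embryos. Heads gave neurospheres, floating cultures that hold neural stem cells and their precursors, and bodies without internal organs gave mouse embryonic fibroblasts (MEFs). Of MEFs there were 3 wild-type (WT) and 5 H3f3a knockout (KO) lines, and of neurospheres 3 lines per genotype, all untreated. The series title describes a knockout-first allele, a design in which an inserted cassette disrupts the gene. Strain, sex and which MEF and neurosphere lines share an embryo are not stated in the labels, so the spread between lines is the only error used. RNA was read as tags from transcript 3′ ends, which do not tell the parental copies apart. A change in the active copy and a change in the number of active copies therefore cannot be told apart, and in bulk cultures neither can fewer cells of a type and less RNA per cell.

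Libraries held 1669406 to 3296178 assigned reads, and levels are given in CPM, the reads of a gene scaled to a common library size across all libraries. A single read was worth 0.304 to 0.599 CPM. H3f3a stood at 844, 1422 and 853 CPM in the WT MEF lines and at 7.27 to 18.8 CPM in the KO MEF lines. In neurospheres it stood at 1964 to 2409 CPM in WT against 26.2 to 70.7 CPM in KO lines, so no library went against its label. H3f3b, the other H3.3 gene, stood at 1246 to 1874 CPM in WT and 1116 to 2195 CPM in KO MEFs. In neurospheres H3f3b held 1703 to 2357 CPM in WT and 1997 to 2431 CPM in KO lines. The 10 fibroblast markers summed to 13473 to 21733 CPM in MEFs and 40.1 to 168 CPM in neurospheres, and the 10 neural stem and precursor markers to 76.5 to 176 CPM in MEFs and 5738 to 10246 CPM in neurospheres. WT MEFs 2 and KO MEFs 3 stood apart from the other 6 MEF lines on the first principal component, which held 53.0% of the variance among MEFs. Several differences between KO and WT MEFs that moved with these lines are given with and without them. WT neurospheres 1 had the highest fibroblast marker sum of the neurosphere lines, 168 CPM against 40.1 to 96.0 CPM in the other 5.

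Of the 37 genes, 25 had enough reads to be tested in MEFs and 21 in neurospheres, with 19 tested in both. Dlk1, Igf2, Cdkn1c, Grb10, Zim1 and Zdbf2 were tested in MEFs alone, and Mkrn3 and Ppp1r9a in neurospheres alone. The other 10 had too few reads in both cell types, namely Magel2, Phlda2, Slc22a18, Kcnq1, Ascl2, Dio3, Rtl1, Asb4, Klf14 and Rasgrf1. Of these, 7 had under 10 reads over all 14 libraries, so nothing can be said of them at this depth. Phlda2, a growth inhibitor of the placenta, reached at most 1.88 CPM. Asb4, a subunit of a ubiquitin ligase, ranged from 0 to 16.1 CPM over the 14 lines, with its highest level in KO neurospheres 1. Dio3, the enzyme that inactivates thyroid hormone, failed the filter although 2 MEF lines expressed it strongly, as described further on. Gnas, which encodes the stimulatory G protein alpha subunit, was read through 22 of its 24 annotated transcripts, and the other 2 were not analysed here. Its low level of 2.87 to 14.4 CPM may therefore be a partial one, which was not tested.

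**Figure D1:**
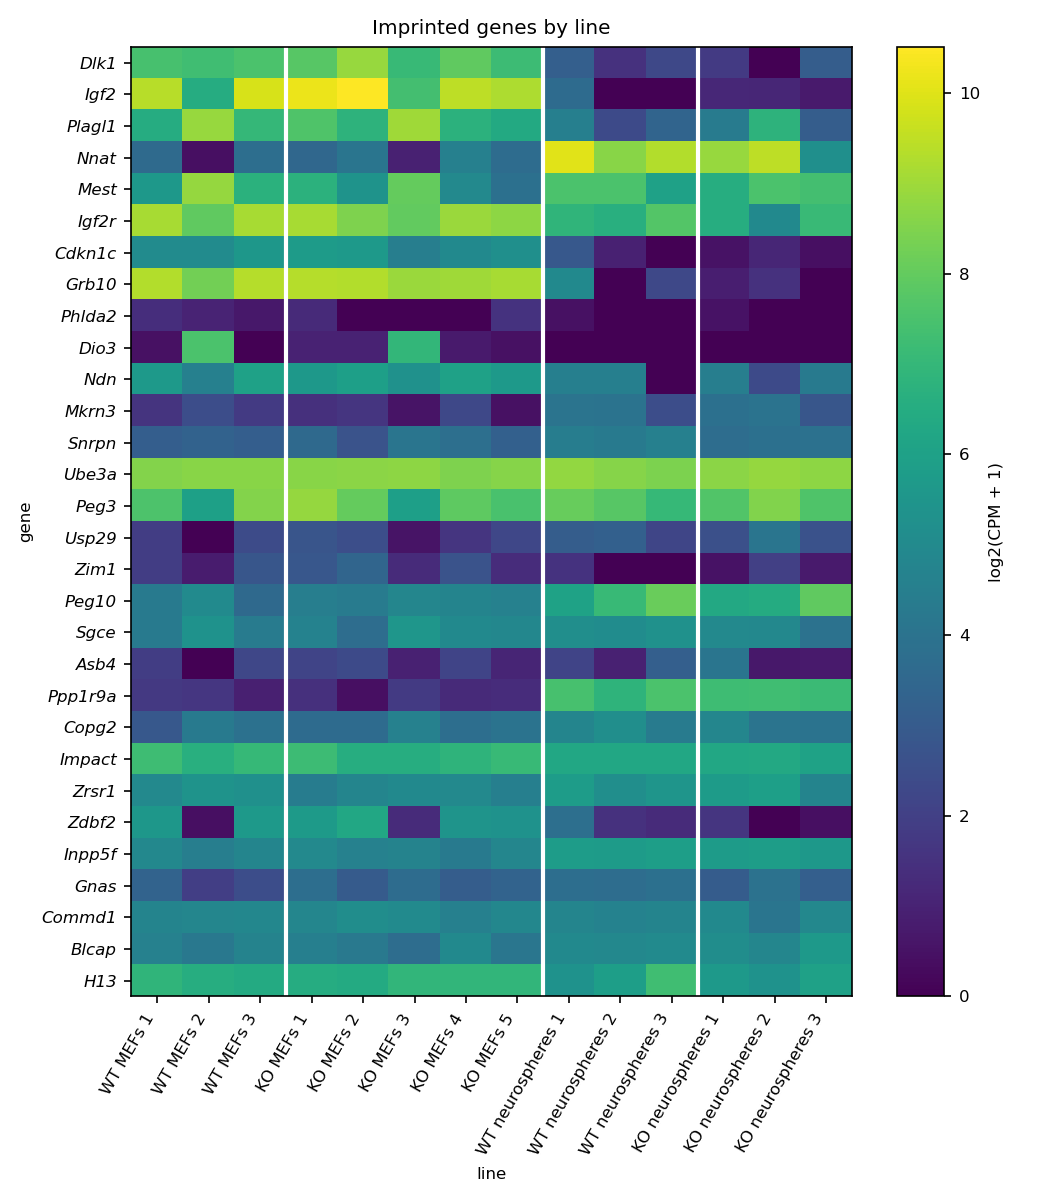
Level of 30 imprinted genes with at least 10 reads in all (vertical axis, grouped by role or domain) in each of the 14 lines (horizontal axis, white lines between groups), as log2(CPM + 1) by colour. Igf2 and Grb10 are bright in MEFs and dark in neurospheres, Nnat and Ppp1r9a the reverse, and WT MEFs 2 and KO MEFs 3 share dark cells for Nnat and Zdbf2 and bright cells for Dio3.

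The widest differences among the imprinted genes lay between the cell types. In WT lines 6 of 26 tested genes were higher in neurospheres than in MEFs and 7 were lower (edgeR quasi-likelihood test, adjusted p under 0.05), against 20.8% higher and 20.8% lower, 41.6% in all, among the 11080 genes tested. In KO lines 7 of 27 were higher and 9 lower, against 25.4% and 26.2%, 51.6% in all, of 11413 genes. The shares of imprinted genes called, 13 of 26 in WT and 16 of 27 (59.3%) in KO lines, were thus not far from those of all genes. At an unadjusted p under 0.05 there were 15 of 26 in WT lines, against 51.2% of all genes, and 17 of 27 in KO lines, against 57.6%. The lines of the cell types did not overlap for 16 of 26 imprinted genes in WT, against 57.1% of all genes, and for 13 of 27 in KO lines, against 49.8%. The sizes were larger: the median absolute log2 difference of the imprinted genes was 1.41 in WT and 1.32 in KO lines, and that of all tested genes was 0.82 and 0.87. The WT and KO comparisons share no library. There were 11 genes called in both and all 11 had the same direction, with Nnat, Ppp1r9a, Peg10, Mkrn3 and Inpp5f higher in neurospheres and Igf2, Dlk1, Grb10, Cdkn1c, Igf2r and Impact lower. The matching count over all genes was not made, so this match cannot be called particular to imprinted genes.

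Growth ligands were among the genes lower in neurospheres. Igf2, the insulin-like growth factor that drives fetal growth, stood at 668, 90.7 and 941 CPM in WT MEFs and at 1160, 1456, 164, 709 and 590 CPM in KO MEFs. In WT neurospheres it stood at 11.8, 0 and 0 CPM, and in KO neurospheres at 1.24, 1.20 and 0.70 CPM. Every MEF line was above every neurosphere line, and 2 of the WT neurosphere lines had no read. On the log2 scale the difference was -7.10 ± 1.51 (SE) in WT lines (edgeR, adjusted p = 0.0088) and -9.57 ± 0.96 in KO lines (edgeR, adjusted p = 4.98e-05). WT neurospheres 1 held all 31 reads of the WT neurosphere lines. The WT difference missed the threshold when low-count genes were kept in the fit (edgeR, adjusted p = 0.0597).

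Dlk1, a membrane ligand related to the Notch ligands that holds back differentiation of fat and other mesenchymal precursors, had 175, 156 and 183 CPM in WT MEFs and 134 to 471 CPM in the 5 KO MEF lines, with a median of 219 CPM. Neurosphere lines held 0 to 8.02 CPM. The groups did not overlap, and the log2 difference was -5.16 ± 0.45 in WT (edgeR, adjusted p = 0.000213) and -5.98 ± 0.79 in KO lines (edgeR, adjusted p = 0.000266).

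Growth inhibitors and the receptor that clears IGF2 moved the same way as the ligands. Grb10, an adaptor that damps insulin and IGF1 receptor signalling, stood at 620, 312 and 650 CPM in WT MEFs and 483 to 639 CPM in KO MEFs. Its neurosphere values were 30.5, 0 and 3.90 CPM in WT and 0.82, 1.80 and 0 CPM in KO lines. This gave a log2 difference of -5.48 ± 1.17 in WT (edgeR, adjusted p = 0.00907) and -9.47 ± 0.50 in KO lines (edgeR, adjusted p = 1.35e-06). Its WT call was also lost with low-count genes kept (edgeR, adjusted p = 0.0567). Cdkn1c, the cyclin-dependent kinase inhibitor p57, had 32.4, 33.0 and 46.5 CPM in WT MEFs and 21.3 to 53.7 CPM in KO MEFs, against 6.49, 0.93 and 0 CPM in WT and 0.35 to 1.20 CPM in KO neurospheres. Its log2 difference was -3.86 ± 0.90 in WT (edgeR, adjusted p = 0.0124) and -5.91 ± 0.55 in KO lines (edgeR, adjusted p = 2.5e-05).

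Igf2r, the receptor that carries IGF2 to the lysosome, was present in every neurosphere line, at 97.3 to 205 CPM in WT and 30.6 to 136 CPM in KO lines, below the 242 to 559 CPM of the MEF lines. Its log2 difference came to -1.67 ± 0.41 in WT (edgeR, adjusted p = 0.0151) and -2.23 ± 0.45 in KO lines (edgeR, adjusted p = 0.00278), and in WT lines it missed the threshold without any 1 of WT MEFs 1 or 3 or WT neurospheres 1 or 2 (adjusted p 0.0511 to 0.0596). Impact, an inhibitor of the stress kinase GCN2, was lower by a smaller step, from 91.9 to 151 CPM in MEFs to 64.9 to 79.1 CPM in neurospheres. Its log2 difference was -0.68 ± 0.22 in WT (edgeR, adjusted p = 0.0419) and -0.62 ± 0.21 in KO lines (edgeR, adjusted p = 0.029). Leaving out single lines ended this call in several cases, with adjusted p up to 0.295 over the alternatives in WT and 0.291 in KO lines.

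For 4 of the 6 genes lower in neurospheres, Igf2, Dlk1, Grb10 and Cdkn1c, WT neurospheres 1 held the highest level of the 6 neurosphere lines. It was also the line with the highest fibroblast marker sum, and the part of these markers in the levels was not tested. Without it the WT log2 differences were larger in size, -5.82 for Dlk1, -7.92 for Grb10 and -6.34 for Cdkn1c.

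Among genes higher in neurospheres, Nnat and Ppp1r9a differed most. Nnat, a small proteolipid of the endoplasmic reticulum that is abundant in newborn neurons, stood at 1057, 397 and 621 CPM in WT and 473, 712 and 36.7 CPM in KO neurospheres. MEF lines held 0.36 to 23.2 CPM, so the cell types did not overlap, and KO neurospheres 3 came closest to them. Nnat differed by 6.38 ± 0.94 on the log2 scale in WT (edgeR, adjusted p = 0.00201) and 5.02 ± 0.88 in KO lines (edgeR, adjusted p = 0.00132). Ppp1r9a, the actin-binding scaffold neurabin, stood at 114 to 183 CPM in the 6 neurosphere lines and 0.34 to 2.42 CPM in the 8 MEF lines. Its log2 difference was 6.46 ± 0.40 in WT (edgeR, adjusted p = 7.3e-05) and 6.68 ± 0.33 in KO lines (edgeR, adjusted p = 1.03e-06).

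Peg10, derived from a retrotransposon and needed for the placenta, reached 66.0, 133 and 278 CPM in WT and 79.1, 87.5 and 243 CPM in KO neurospheres, against 10.9 to 31.2 CPM in MEFs. The log2 difference was 3.00 ± 0.61 in WT (edgeR, adjusted p = 0.00728) and 2.56 ± 0.35 in KO lines (edgeR, adjusted p = 0.00027). Sgce, which encodes epsilon-sarcoglycan and starts next to Peg10 on the opposite strand, did not pass in either genotype, with log2 differences of 0.46 ± 0.34 and -0.17 ± 0.40. Inpp5f, a phosphoinositide phosphatase, stood at 48.2 to 58.5 CPM in neurospheres and 19.4 to 29.6 CPM in MEFs, with a log2 difference of 1.15 ± 0.23 in WT lines (edgeR, adjusted p = 0.00563) and one between 0.66 and 1.54 (95% interval) in KO lines (edgeR, adjusted p = 0.00132). The KO value missed the threshold on the deposited TPM (limma, adjusted p = 0.0582).

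The Prader-Willi and Angelman domain on chromosome 7 did not move as a block. Mkrn3, a makorin ring-finger protein that restrains the onset of puberty, was higher in neurospheres, at 4.61 to 15.3 CPM against 0.38 to 4.66 CPM in MEFs, by a log2 difference of 1.94 ± 0.60 in WT (edgeR, adjusted p = 0.0332) and 2.70 ± 0.62 in KO lines (edgeR, adjusted p = 0.00519). The WT call was lost without any 1 of WT MEFs 1 or 3 or WT neurospheres 1 or 2 (adjusted p 0.107 to 0.118). Ndn, a melanoma-antigen family protein that promotes neuronal differentiation, was lower in KO neurospheres than in KO MEFs, by -1.73 ± 0.43 (edgeR, adjusted p = 0.00714). In WT lines its difference was -1.58 ± 1.03, and WT neurospheres 3 had no Ndn read while the other WT lines had 22.5 and 22.4 CPM. Snrpn, a splicing protein, was higher in WT neurospheres (1.37 ± 0.28, edgeR, adjusted p = 0.00648), and in KO lines its difference was 0.34 ± 0.36. Ube3a, the ubiquitin ligase lost in Angelman syndrome, had the narrowest range of the genes described here, 346 to 459 CPM over all 14 lines, with log2 differences of 0.03 ± 0.19 and 0.15 ± 0.14. Reads of Snrpn share a strand with the overlapping model Gm38393, which held 322 reads, so their split is uncertain.

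Of the genes called in 1 genotype, Plagl1 and Snrpn passed in WT lines, and Zdbf2, Ndn, H13, Zrsr1 and Blcap in KO lines. No difference between genotypes in these cell type contrasts passed its own test, given further on as the interaction. Plagl1, a zinc-finger transcription factor of fetal growth, was lower in WT neurospheres by -4.22 ± 0.85 (edgeR, adjusted p = 0.00714), and its KO difference was -2.13 ± 0.92 (edgeR, adjusted p = 0.0779). Without KO neurospheres 2, the line with the most Plagl1 in neurospheres, the KO difference passed at -3.84 ± 0.89 (edgeR, adjusted p = 0.00794), and with all lines it passed by DESeq2 (adjusted p = 0.0164) and on the deposited TPM (limma, adjusted p = 0.0244). Zdbf2, a gene of the postnatal growth axis in the hypothalamus, was lower in KO neurospheres by -5.55 ± 1.22 (edgeR, adjusted p = 0.00429). Its WT difference was -2.49 ± 1.33 with all lines, and it passed at -3.08 ± 0.81 without WT MEFs 2 (edgeR, adjusted p = 0.0218). Without WT MEFs 2 the number of WT calls was 16, and without KO MEFs 3 the number of KO calls was 18.

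H13, the signal peptide peptidase, was lower in KO neurospheres by -1.06 ± 0.22 (edgeR, adjusted p = 0.0027), while the WT difference of -0.18 ± 0.48 turned to 0.14 without WT neurospheres 1, and to -0.96 without WT neurospheres 3 (edgeR, adjusted p = 0.0422). The retrogene Mcts2 lies within H13 on the same strand and held 390 reads. Zrsr1, a splicing factor related to U2AF, was higher in KO neurospheres by 0.86 ± 0.29 (edgeR, adjusted p = 0.0301), and Blcap, the host of Nnat, by 0.92 ± 0.31 (edgeR, adjusted p = 0.0324). Their WT differences were 0.34 ± 0.26 and 0.48 ± 0.25. The KO calls of Zrsr1 and Blcap were lost under several alternatives, with adjusted p up to 0.238 and 0.133, and that of Ndn in 2 (edgeR, adjusted p 0.0745 and 0.0751). Blcap and Nnat overlap on opposite strands, as do Zrsr1 and Commd1, and Mest and Copg2 at their 3′ ends. The strand setting of the counting is not given in the sources used here.

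Mest, Peg3, Usp29, Gnas, Copg2, Sgce, Commd1 and Ube3a were tested in both genotypes and passed in neither. Peg3, a zinc-finger protein of growth and maternal behaviour, lay at 130 to 269 CPM in WT and 195 to 366 CPM in KO neurospheres, within the 59.6 to 460 CPM of the MEF lines. Its log2 differences were -0.01 ± 0.60 and 0.10 ± 0.52, with 95% intervals from -1.43 to 1.41 and from -1.06 to 1.26. Commd1, a copper-handling and NF-kB regulatory protein whose intron holds Zrsr1, had differences of -0.08 ± 0.23 and -0.17 ± 0.26. Gm28048, on the strand of Commd1, held 899 reads, which makes the split between them uncertain.

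**Figure D2:**
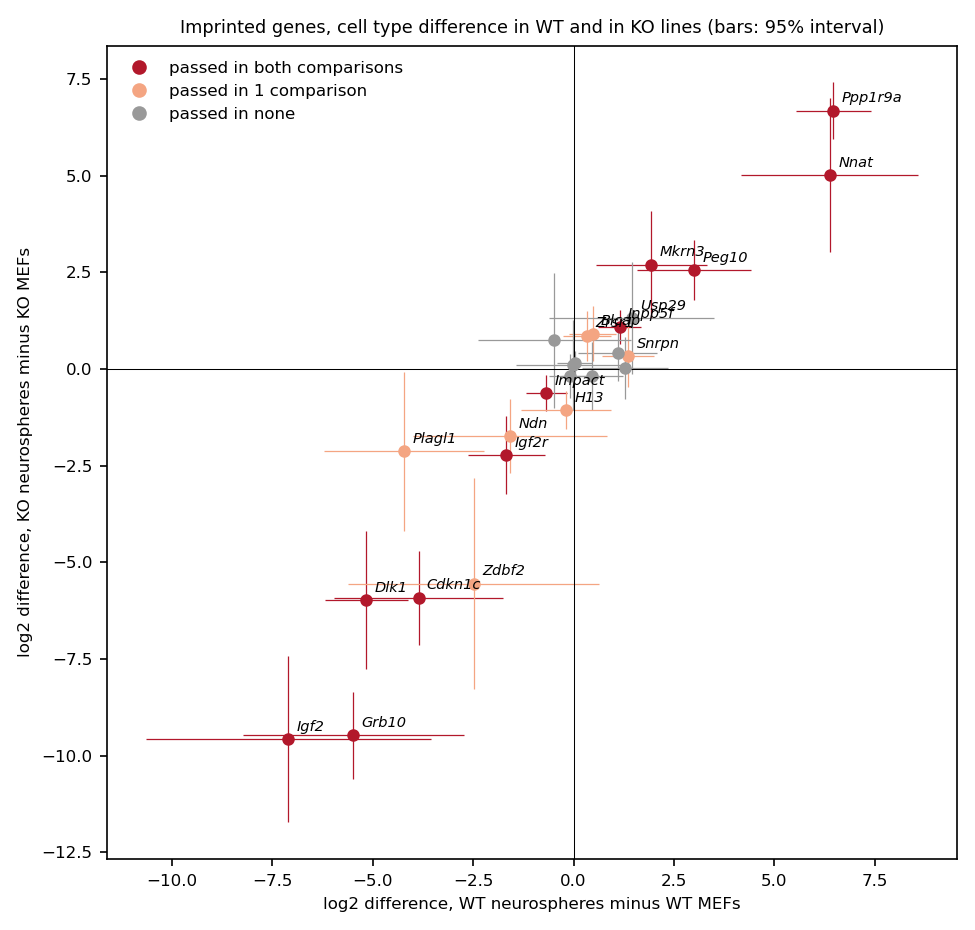
Log2 difference between neurospheres and MEFs in WT lines (horizontal axis) and in KO lines (vertical axis) for 26 imprinted genes tested in both, with 95% intervals. Dark red points are the 11 genes called in both comparisons, all either above 0 on both axes or below 0 on both, from Igf2 at -7.10 and -9.57 to Ppp1r9a at 6.46 and 6.68.

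Loss of H3f3a was compared within each cell type. In MEFs, the lines of the genotypes overlapped for every one of the 25 imprinted genes tested, where 1.85% of all genes did not overlap. Of the 25, 0 were called between KO and WT lines by edgeR, and 0 by DESeq2, while H3f3a was the single gene called among 10785 (0.00927%). At an unadjusted p under 0.05 there was 1 of 25 imprinted genes, Zrsr1, against 1.62% of all genes. The log2 difference was above 0 for 18 of the 25, against 5369 of the 10785 genes tested. Its median was 0.11, against -0.0013 over all genes tested. The genes share their lines, and no test of this count was made. In neurospheres 0 of 21 were called by edgeR and 0 by DESeq2, H3f3a again being the single gene called, among 10624 (0.00941%), and 0 of 21 had an unadjusted p under 0.05, against 2.14% of all genes. The difference was above 0 for 9 of the 21, against 5447 of the 10624 genes tested. Its median was -0.06, against 0.011 over all genes.

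The 5 genes with the smallest p in MEFs were Zrsr1, Gnas, Dlk1, Mest and Snrpn, each with an edgeR adjusted p of 1.00. Zrsr1 stood at 29.7, 40.9 and 37.7 CPM in WT and 20.3, 26.3, 30.5, 29.8 and 22.2 CPM in KO MEFs, which overlap, with a log2 difference of -0.49 ± 0.20 (unadjusted p = 0.0374, edgeR). It was -0.45 without the pair of MEF lines that stand apart. Gnas differed by 0.82 ± 0.42, and by 0.44 without that pair. Dlk1 differed by 0.50 ± 0.39 and Snrpn by 0.38 ± 0.36.

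Mest, a hydrolase-like protein of mesodermal tissue, changed direction with the lines used. Its levels were 48.3, 461 and 103 CPM in WT and 106, 41.3, 256, 29.8 and 13.9 CPM in KO MEFs, with the highest value of each group in WT MEFs 2 and KO MEFs 3. Its log2 difference was -1.20 ± 1.01 with all lines, 0.23 without WT MEFs 2, -2.11 without KO MEFs 3 and -0.67 without both. Igf2, by contrast, differed by 0.53 ± 0.81, with a 95% interval from -1.35 to 2.41, and Grb10 by 0.10 ± 0.23, with an interval from -0.42 to 0.61. Without the pair the difference was 0.28 ± 0.44 for Igf2. Zdbf2 and Nnat, which were lowest in the pair, differed by 0.42 ± 1.12 and 0.60 ± 0.92 with all lines and by 0.15 ± 0.25 and 0.32 ± 0.35 without it. Peg10 differed by 0.21 ± 0.31 with all lines. Without the pair it differed by 0.63 ± 0.28 (edgeR, unadjusted p = 0.0424, adjusted p = 0.9998). Plagl1 differed by -0.22 ± 0.76 with all lines and turned to 0.18 ± 0.34 without the pair. The standard error set what the design could resolve, from 0.11 for Ube3a (difference 0.02) and 0.18 for Commd1 (difference 0.09) to 0.92 for Nnat and 1.12 for Zdbf2.

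In neurospheres the genes with the smallest p were Snrpn, Plagl1, Sgce, H13 and Copg2, each with an edgeR adjusted p of 0.999. Snrpn stood at 21.0, 19.1 and 23.0 CPM in WT and 12.4, 13.8 and 14.3 CPM in KO lines. Its KO lines were all below its WT lines, with a log2 difference of -0.63 ± 0.28 (unadjusted p = 0.0541, edgeR). Sgce stood at 35.1, 33.5 and 39.4 CPM in WT and 30.1, 28.8 and 14.7 CPM in KO lines, again without overlap, and differed by -0.55 ± 0.32. These were the 2 of 21 imprinted genes whose lines did not overlap, where 7.2% of all tested genes did not overlap.

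Plagl1 differed by 1.91 ± 1.06 in neurospheres, from 22.5, 4.19 and 9.57 CPM in WT to 19.8, 110 and 7.68 CPM in KO lines. Of the KO lines, 2 lay within the range of the WT lines and KO neurospheres 2 lay above it, and without that line the difference was 0.17. H13 stood at 40.5, 58.7 and 157 CPM in WT and 48.6, 39.6 and 62.8 CPM in KO lines, and its difference of -0.75 ± 0.50 was 0.03 without WT neurospheres 3. Copg2, a coatomer subunit, differed by -0.48 ± 0.35, and by -2.16 on the deposited TPM (limma, adjusted p = 1.00).

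**Figure D3:**
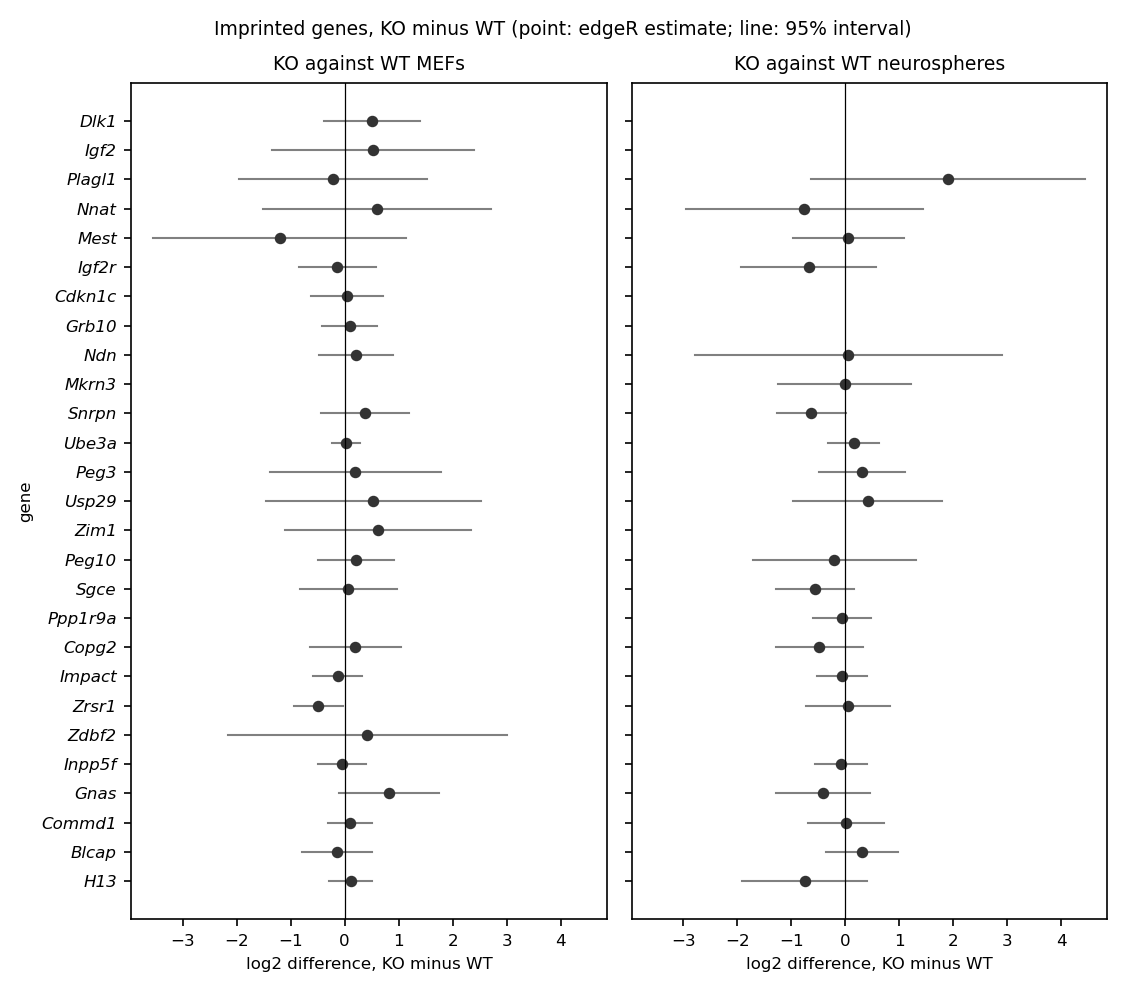
Log2 difference between KO and WT lines with its 95% interval for each of 27 imprinted genes tested in MEFs (left) or in neurospheres (right). All intervals but that of Zrsr1 in MEFs include 0, and they are widest for Mest, Igf2, Nnat, Usp29 and Zdbf2 in MEFs and for Ndn, Plagl1 and Nnat in neurospheres.

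Whether the KO difference itself differed between the cell types was tested over all 14 lines. None of 28 imprinted genes passed, by edgeR or by DESeq2, and none of the 12113 genes tested did (0.0%). At an unadjusted p under 0.05 there were 3 of 28, Grb10, Snrpn and Gnas, against 3.02% of all genes. Each of the 5 genes with the smallest p had an edgeR adjusted p of 1.00. The largest value, -3.99 ± 1.44 for Grb10 (unadjusted p = 0.016, edgeR), was -1.56 without WT neurospheres 1, whose 30.5 CPM set it apart from the other 5 neurosphere lines at 0 to 3.90 CPM. Snrpn gave -1.02 ± 0.45 and Gnas -1.24 ± 0.57. Cdkn1c gave -2.06 ± 1.21, which turned to 0.42 without WT neurospheres 1, and H13 gave -0.87 ± 0.52, which was -0.087 without WT neurospheres 3.

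Some wide contrasts of imprinted genes among MEF lines did not follow genotype. In MEFs, 9 of the 25 tested genes were lower in both WT MEFs 2 and KO MEFs 3 than in all other 6 lines, namely Nnat, Peg3, Igf2, Igf2r, Grb10, Ndn, Zim1, Usp29 and Zdbf2. Another 5 were higher in both, namely Mest, Plagl1, Peg10, Sgce and Copg2, which makes 14 of 25 (56.0%). Of all tested genes 20.3% lay below and 18.0% above, 38.3% in all. These lines were picked because they stand apart on all genes, so the counts describe them and no test was made. The pair holds 1 line of each genotype.

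Zdbf2 was at 40.3 to 77.2 CPM in the other 6 lines, at 0.36 CPM in WT MEFs 2 and at 1.45 CPM in KO MEFs 3. Nnat was at 10.3 to 23.2 CPM in the 6 lines and at 0.36 and 0.97 CPM in the pair. Igf2 was at 590 to 1456 CPM against 90.7 and 164 CPM, and Peg3 at 181 to 460 CPM against 61.0 and 59.6 CPM. Usp29, a ubiquitin-specific protease that starts next to Peg3, was at 2.08 to 5.85 CPM against 0 and 0.48 CPM.

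In the other direction, Dio3 was at 0 to 1.03 CPM in the 6 lines and at 183 and 124 CPM in the pair. All 6 neurosphere lines had no Dio3 read, which allows up to 1.05 to 1.80 CPM by a floor of 3 reads per library. Plagl1 was at 82.4 to 193 CPM against 478 and 509 CPM, and Mest at 13.9 to 106 CPM against 461 and 256 CPM. Sgce and Peg10 were higher by smaller steps, Sgce at 40.5 and 45.0 CPM against 12.6 to 30.4 CPM and Peg10 at 31.2 and 27.1 CPM against 10.9 to 25.9 CPM. Dlk1, at 156 and 134 CPM against 146 to 471 CPM, and Rtl1, with 1 read in all libraries, are neighbours of Dio3 on chromosome 12 and did not share its pattern. Ube3a, at 400 and 426 CPM against 357 to 411 CPM, and Cdkn1c, at 33.0 and 21.3 CPM against 30.4 to 53.7 CPM, did not lie outside the other lines in both.

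**Figure D4:**
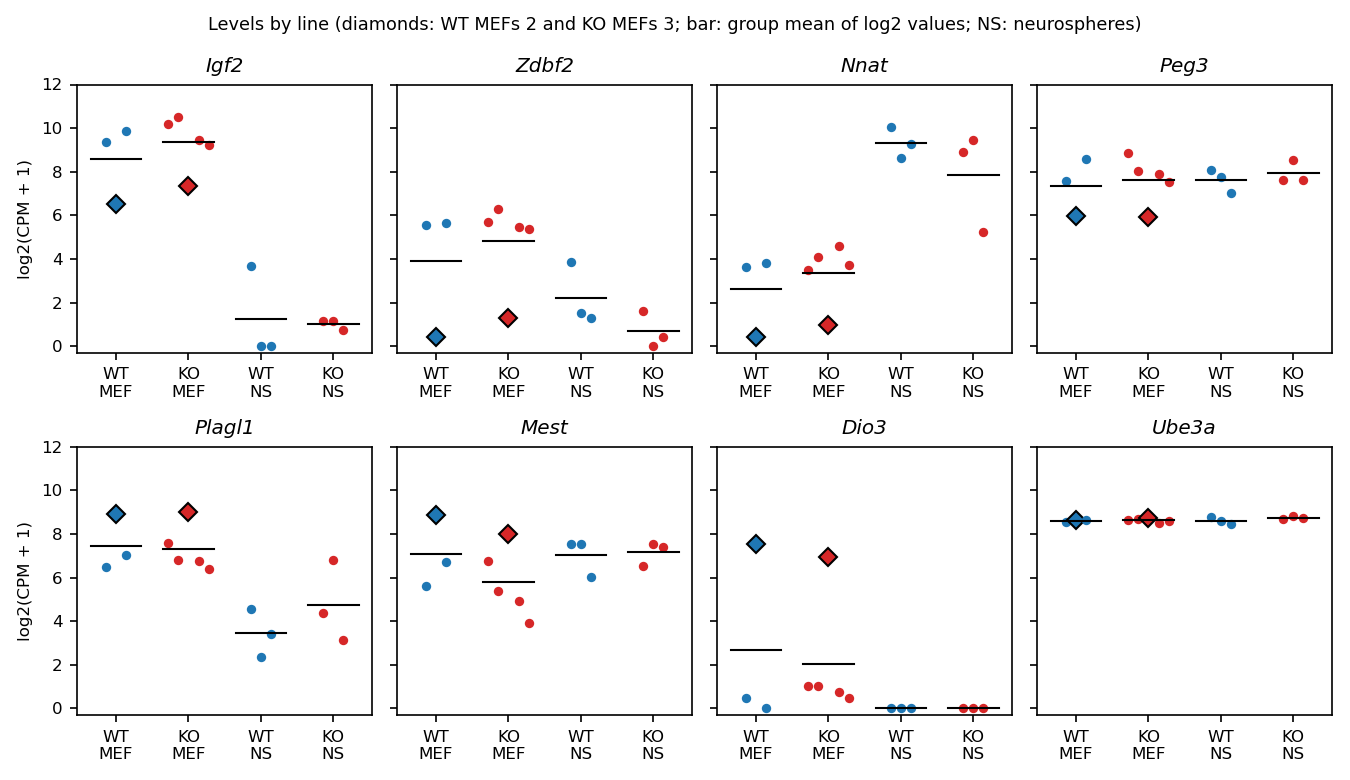
Level of 8 imprinted genes as log2(CPM + 1) in each line, by group (WT blue, KO red; black bar, mean of the log2 values; NS, neurospheres). The diamonds, WT MEFs 2 and KO MEFs 3, lie under the other MEF lines for Igf2, Zdbf2, Nnat and Peg3, above them for Plagl1, Mest and Dio3, and among them for Ube3a.

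Marker levels of other cell types differed in this pair too. The choroid plexus and meninges list of 6 genes summed to 176 and 211 CPM in WT MEFs 2 and KO MEFs 3 and to 15.5 to 44.3 CPM in the other 6 lines, nearly all from Foxc1, at 175 and 210 CPM. Ttr and Slc6a13 of that list had no read in any MEF line. The 6 cartilage markers summed to 355 and 280 CPM against 98.5 to 182 CPM, mostly from Sox9, a transcription factor that is also active in neural precursors, at 339 and 229 CPM against 85.5 to 181 CPM. Sox9 reached 601 to 1439 CPM in neurospheres. Col2a1 and Acan, the matrix genes of that list, stood at 5.74 and 38.7 CPM and at 0.717 and 8.23 CPM in the pair, so Col2a1 and Acan were raised in KO MEFs 3 but within the 0.688 to 10.3 CPM and 0 to 3.42 CPM of the other lines in WT MEFs 2. The 8 skeletal muscle markers summed to 10.4 and 18.9 CPM against 19.2 to 79.4 CPM. The 6 endothelial markers summed to 5.74 and 7.27 CPM against 13.4 to 33.5 CPM, and the 6 epithelial markers to 0.36 and 2.91 CPM against 3.65 to 15.4 CPM. The 8 macrophage markers were at 166 CPM in WT MEFs 2 and 16.0 CPM in KO MEFs 3, on either side of the 19.4 to 83.4 CPM of the others, and fibroblast markers were at 14629 and 21733 CPM against 13473 to 20161 CPM. That fibroblast sum held opposite shifts of single markers. Thy1 was at 103 and 129 CPM against 556 to 746 CPM, and Col3a1 at 4126 and 4876 CPM against 956 to 2036 CPM. Pdgfrb, at 131 and 177 CPM against 83.9 to 200 CPM, lay within the other lines. The part of these markers in the levels of the imprinted genes was not tested.

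Imprints are commonly kept at CpG-rich stretches near promoters. The bases before the start sites of some of the genes that set this pair apart are therefore shown. They are the 250 bases upstream of the RefSeq start on GRCm38.p6, in lower case 5′ to 3′ on the gene's strand, with capitals marking TGCCGC or its reverse complement GCGGCA, the core motif bound by the imprint keeper ZFP57 when methylated. The first 3 genes were lower and the last 3 higher in the pair.
Zdbf2, chr1:63273019-63273268 (+): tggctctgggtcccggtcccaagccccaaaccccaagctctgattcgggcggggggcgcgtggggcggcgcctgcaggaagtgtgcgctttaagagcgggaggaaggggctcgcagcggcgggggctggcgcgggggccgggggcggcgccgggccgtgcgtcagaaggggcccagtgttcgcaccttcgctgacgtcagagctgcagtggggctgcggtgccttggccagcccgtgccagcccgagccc
Nnat, chr2:157559828-157560077 (+): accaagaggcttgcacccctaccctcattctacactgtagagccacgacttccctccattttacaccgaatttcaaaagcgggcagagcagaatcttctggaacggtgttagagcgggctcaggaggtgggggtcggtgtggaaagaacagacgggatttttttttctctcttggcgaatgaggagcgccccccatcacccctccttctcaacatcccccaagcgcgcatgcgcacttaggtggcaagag
Peg3, chr7:6730420-6730669 (-): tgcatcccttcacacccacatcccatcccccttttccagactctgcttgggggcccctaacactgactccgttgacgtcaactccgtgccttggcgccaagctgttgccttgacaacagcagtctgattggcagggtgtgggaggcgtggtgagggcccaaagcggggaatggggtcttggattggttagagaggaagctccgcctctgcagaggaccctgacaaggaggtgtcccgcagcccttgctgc
Dio3, chr12:110278980-110279229 (+): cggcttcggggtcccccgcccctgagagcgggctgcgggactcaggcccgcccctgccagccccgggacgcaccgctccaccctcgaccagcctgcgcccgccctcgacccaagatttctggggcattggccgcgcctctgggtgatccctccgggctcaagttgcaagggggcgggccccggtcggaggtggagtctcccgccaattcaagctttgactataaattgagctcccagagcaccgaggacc
Plagl1, chr10:13090582-13090831 (+): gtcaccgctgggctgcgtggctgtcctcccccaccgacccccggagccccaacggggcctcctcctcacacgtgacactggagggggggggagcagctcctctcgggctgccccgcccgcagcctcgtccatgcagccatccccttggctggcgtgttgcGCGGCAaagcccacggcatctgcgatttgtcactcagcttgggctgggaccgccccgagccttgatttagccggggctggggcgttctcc
Mest, chr6:30737803-30738052 (+): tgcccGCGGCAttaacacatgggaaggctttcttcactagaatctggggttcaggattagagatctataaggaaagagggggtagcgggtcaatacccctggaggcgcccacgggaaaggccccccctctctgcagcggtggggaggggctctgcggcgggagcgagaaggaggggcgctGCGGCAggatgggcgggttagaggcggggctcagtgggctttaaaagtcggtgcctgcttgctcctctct

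The motif was present 2 times in the Mest window and 1 time in the Plagl1 window, and not in the other 4 windows shown. It was found on either strand in 4 of the 30 imprinted genes with a window (13.3%), against 8.68% of 32851 windows of the same length for all genes. The 4 were these 2, Zim1, which was lower in the pair, and Copg2, which was higher. Igf2, also lower in the pair, had no match. Each imprinted gene gave 1 window, the nearest to the start of its most read transcript, while a gene can give several to the 32851. The shares are thus of unlike units. The chosen window lay 1708 bases from that start for Ndn, 1210 for Zrsr1 and 832 for Dlk1. CpG dinucleotides numbered 26 in the Zdbf2 window, 21 in that of Dio3, 19 in that of Plagl1, 14 in that of Mest, 12 in that of Nnat and 8 in that of Peg3. The median was 14 over the chosen windows of the 30 imprinted genes and 6 over all windows. In the annotation used for the counts Dio3 starts 162 bases before its RefSeq start, so most of its window lies within the annotated gene. The Peg3 and Usp29 windows share 163 bases, since these genes start next to each other on opposite strands. Methylation was not measured in these libraries, and a match of letters is not a bound site.

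Further imprinted genes outside the 37 were read for comparison, of which 32 of 44 listed were present in the files, the others being not used here. In the KO comparisons none was called, of 23 tested in MEFs, 17 in neurospheres and 24 for the interaction (edgeR). Between cell types in WT lines 6 of 21 were higher and 7 lower in neurospheres, against 20.8% and 20.8% of all genes, and in KO lines 7 of 24 were higher and 8 lower, against 25.4% and 26.2%. In both genotypes 6 rose and 7 fell, and the matching count over all genes was not made. Nap1l5, a nucleosome assembly protein encoded in an intron of another gene, rose by 5.62 ± 0.80 in WT lines (edgeR, adjusted p = 0.00179) and 5.25 ± 0.49 in KO lines (edgeR, adjusted p = 3e-05). Gab1, a docking protein of receptor kinases, rose by 2.66 ± 0.54 (edgeR, adjusted p = 0.00676) and 3.64 ± 0.49 (edgeR, adjusted p = 0.000266). Slc38a4, an amino acid transporter of the placenta and liver, stood at 10.4 to 92.6 CPM in WT and 19.4 to 131 CPM in KO MEFs and had no read in any neurosphere line. In WT MEFs 2 and KO MEFs 3, 8 of 23 of these genes were below and 5 above the other 6 MEF lines, against 20.3% and 18.0% of all genes.

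A mixed list of 21 held proteins that keep imprints and enzymes that set or oxidise DNA methylation. Of these 21, 16 were tested in each comparison. None was called between KO and WT lines in MEFs, in neurospheres or in the interaction (edgeR). Between cell types 9 of 16 passed in WT lines, 6 higher and 3 lower in neurospheres, against 41.6% of all genes, and 12 of 16 in KO lines, 8 higher and 4 lower, against 51.6%. Those higher in neurospheres in both genotypes were Arid4a, Arid4b, Dnmt3a and the dioxygenases that oxidise methylated cytosine, Tet1, Tet2 and Tet3. Counts over this mixed list therefore do not say whether the keeping of imprints differed. Tet1 stood at 51.3 to 82.1 CPM against 4.36 to 15.8 CPM in MEFs. Tet1 rose by 2.96 ± 0.32 in WT (edgeR, adjusted p = 0.00048) and 3.09 ± 0.41 in KO lines (edgeR, adjusted p = 0.00023). Dnmt3a, a DNA methyltransferase that sets new marks, rose by 2.43 ± 0.30 (edgeR, adjusted p = 0.000813) and 2.33 ± 0.20 (edgeR, adjusted p = 1.84e-05). Hells, a chromatin remodeller that aids DNA methylation, fell by 2.88 on the log2 scale in WT (SE 0.67, edgeR, adjusted p = 0.0126) and by 1.99 in KO lines (SE 0.63, edgeR, adjusted p = 0.0251). Smchd1, a chromatin protein that silences imprinted clusters and the inactive X, fell by 0.74 (SE 0.18, edgeR, adjusted p = 0.0119) and 0.56 (SE 0.20, edgeR, adjusted p = 0.0408).

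Gene pairs that share a domain, are nested or belong to the growth axis were compared over lines. MEF lines fall into separate clusters, so r was computed over the 6 MEF lines without WT MEFs 2 and KO MEFs 3 and over the 6 neurosphere lines, in 15 pairs in all, a choice made after seeing the data. None of these 15 passed after adjustment. Over all 8 MEF lines, with 9 pairs, none passed by Pearson's r (exact permutation, lowest adjusted p = 0.143) and 2 passed by Spearman's rho, values that mix both clusters. These were Peg10 and Sgce, with rho = 0.88 (exact permutation p = 0.00724, adjusted 0.0482) and r = 0.68 (exact permutation p = 0.0623, adjusted 0.143), and Igf2 and Dlk1, with rho = 0.86 (exact permutation p = 0.0107, adjusted 0.0482) and r = 0.66 (exact permutation p = 0.079, adjusted 0.143). Within the 6 MEF lines rho for Peg10 and Sgce was 0.77 (exact permutation p = 0.103, adjusted 0.385). Igf2 and Dlk1 had Pearson r = 0.80 over 6 MEF lines (exact permutation over pairings, two-sided p = 0.0333, adjusted 0.25) and Spearman rho = 0.83 (exact permutation p = 0.0583, adjusted 0.292). Without the 2 lines farthest from the Igf2 median r was 0.36, so the relation rests on those lines. Peg3 and Usp29 had r = 0.94 over 6 neurosphere lines (exact permutation p = 0.0111, adjusted 0.167) and rho = 0.89 (exact permutation p = 0.0333, adjusted 0.292), and r = 0.69 without the 2 lines farthest from the Peg3 median. The other 13 pairs had an adjusted p of 0.312 or more for r.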

How the data were processed

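The authors deposited 1 Salmon table per library, from 3′ mRNA libraries (QuantSeq FWD), with estimated counts and TPM per transcript; per the submitters' processing notes Salmon was version 1.1.0, and edgeR is named without a version. The labels do not state the transcript set, mapping options or strand setting. The deposited estimated counts were summed per gene with GENCODE M21 (GRCm38), rounded, and scaled by TMM; 115560 of 116945 transcripts matched with their version, 385 by identifier alone, and the other 1000 held 0.251% to 0.425% of reads. Depth was 1669406 to 3296178 reads per library, and mitochondrial reads were 5.27% to 6.15% in MEFs and 12.9% to 16.8% in neurospheres. Deposited TPM values were used in 1 alternative, as log2(TPM + 1) in limma.

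Comparisons used edgeR 4.0.16 (robust quasi-likelihood test, R 4.3.3) on genes that passed its filter, with Benjamini-Hochberg adjustment over all genes and a threshold of 0.05. DESeq2 1.42.0, limma 3.58.1, other filters, scaling, a replicate block and left-out lines were alternatives. The gene list, its groups and the marker lists were chosen with earlier results of these data known. Tests are printed for every imprinted gene called, for the 5 of smallest p in each KO comparison (among those whose higher group averages 5 CPM or more), and for cell type calls by role. The code was tested on simulated data. Sample titles give replicate numbers, and each replicate is taken here as a separate line. Nothing says that they are separate embryos, so p-values measure the spread between these lines. Floors cover counting error only. Sequences come from RefSeq (GRCm38.p6), which held windows for 30 of the 37 genes.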

Additional observations from a re-analysis of the deposited data

Results flagged for a closer look

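Plagl1 in KO MEFs 3 stood at 509 CPM, far from the other 4 KO MEF lines at 82.4 to 193 CPM, with a gap of 0.739 of the group's range. Dio3 stood at 124 CPM in the same line and at 0.38 to 1.03 CPM in the other 4, with a gap of 0.995 of the range. These were the 2 values to stand out among 24 imprinted genes with a mean of at least 5 CPM over the 5 KO MEF lines. Dio3 reached that mean only through KO MEFs 3, so its flag was fixed by the value that let it in. How often such a gap occurs among all genes was not counted, so 2 of 24 has no rate to be set against. KO MEFs 3 already stood apart on all genes, and the genes share their lines. WT MEFs 2, the other MEF line that stands apart on all genes, held 478 CPM of Plagl1 and 183 CPM of Dio3.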

How the results depend on the processing

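No count of imprinted genes called moved by more than 1.5 times under the alternatives. Between KO and WT lines and in the interaction it stayed 0 in all of them, including without both MEF lines that stand apart, an alternative chosen after seeing the data, as were the correlations over 6 MEF lines. WT neurospheres against WT MEFs gave 10 to 16 calls when single lines were left out, and KO neurospheres against KO MEFs 13 to 18, against 13 and 16. The replicate block gave 0, 0, 0, 12 and 11 calls for the KO comparison in MEFs, that in neurospheres, the interaction, the WT and the KO cell type comparison; the labels give no pairing beyond the shared number, and lines with the same number did not deviate together (correlations from -0.54 to 0.18). Over left-out lines, directions turned for Mest, KO against WT MEFs (-2.11 to 0.23, the last without WT MEFs 2), H13, KO against WT neurospheres (-1.09 to 0.034, without WT neurospheres 3), Cdkn1c in the interaction (-2.67 to 0.42, without WT neurospheres 1), and H13, WT neurospheres against WT MEFs (-0.96 to 0.14 without WT neurospheres 1, and 0.012 without WT neurospheres 2). Without both MEF lines that stand apart, the KO difference in MEFs also turned for Plagl1 (-0.22 to 0.18), Grb10 (0.10 to -0.12) and Ndn (0.21 to -0.022). With all lines none of these was called, and the cause was not tested. Among values of single genes or pairs, 750 kept direction and side of the threshold, 43 lost a call, 6 gained one and 15 correlations moved. Genes under about 1 CPM are limited by depth, since 1 read was worth up to 0.599 CPM.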
